A study of Mus musculus with 2 samples.

Results

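Laminins are the trimeric glycoproteins from which epithelial cells assemble their basement membrane. The 8 laminin genes examined were Lama1, Lama3, Lama4 and Lama5 (alpha chains), Lamb1, Lamb2 and Lamb3 (beta chains) and Lamc1 (a gamma chain). They were taken as a set of names, chosen with earlier results of these data known. Every region of an Etv4 and an Etv5 ChIP-seq list that overlapped a member gene or its 50 kb flanks was counted. This gave 34 of 13636 Etv4 regions (0.249%) and 17 of 8297 Etv5 regions (0.205%). No region was counted for more than 1 of the 8 genes.

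Both libraries came from EpRas cells, a mouse mammary gland epithelial line (EpH4) transformed with oncogenic H-Ras. The cells were grown in 4% serum and received TGF-β3 (1 ng/ml) during the last 1.5 h, so both libraries share the line, the Ras transformation and the cytokine. They differ in the antibody, a rabbit polyclonal against Etv4 in one and a mouse monoclonal against Etv5 in the other. Etv4 and Etv5 are transcription factors of the PEA3 group of the ETS family, which bind DNA with a GGAA core, and ChIP-seq recovers the DNA crosslinked to them. There was 1 library per antibody, so no value has a replicate error and no test between the antibodies was made. The lists give the position and a number of each region, but no read count, height or p-value, and the depth behind them is unknown. The score was 1000 for every region. The criterion of the region number is not stated, and it is used here only as the order within a list. Intervals are exact (Clopper-Pearson) 95% binomial intervals and cover counting error only. Untreated cells, parental cells and input DNA were not analysed here, and a listed region is not a measure of expression. The epithelial label could not be checked against marker transcripts with these lists.

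A laminin molecule is a cross of an alpha, a beta and a gamma chain, and its name gives the chains in that order. Laminin-332, which holds the Lama3 and Lamb3 chains, is the main laminin under stratified and glandular epithelia, where it anchors hemidesmosomes through integrin α6β4. Laminin-511, from Lama5, Lamb1 and Lamc1, is widespread in epithelial basement membranes, and laminin-111, from Lama1, Lamb1 and Lamc1, belongs mainly to the embryo. Lama4 is known from vessels and mesenchymal tissues, and Lamb2 from the neuromuscular junction and the glomerulus. Lama3 has a long and a short protein product from separate promoters, the short one being typical of laminin-332.

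The sequences in question are shown first, as 300 bases of GRCm38 (mm10). Capitals mark matches, on either strand, to an ETS pattern (CAGGAAGT or CCGGAAGT), an AP-1 pattern (TGACTCA) or a RUNX pattern (TGTGGTT or TGTGGTC), and a match is a description of the letters and not of binding. The first 7 are centred on 7 of the 12 stretches listed in both libraries. The others, at Lama3 and downstream of Lamc1, are not shown. In 6 of the 7 shown, all 300 bases are common to both lists. At Lama5 10222 and 7602 only 83 bp are common, and the flanks belong to 1 list. These 7 windows hold different patterns, and 2 of the 7 hold none. Numbers after a name are the region numbers in the Etv4 and then the Etv5 list.
Lamb3 intron 5, 542 and 323, chr1:193298149-193298448, plus strand: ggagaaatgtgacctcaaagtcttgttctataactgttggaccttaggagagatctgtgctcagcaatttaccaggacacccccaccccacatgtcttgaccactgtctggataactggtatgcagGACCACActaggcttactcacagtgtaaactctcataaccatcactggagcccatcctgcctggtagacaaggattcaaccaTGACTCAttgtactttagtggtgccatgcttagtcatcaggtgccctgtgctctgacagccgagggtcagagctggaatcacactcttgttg
Lamb3 upstream of the start, 2209 and 1433, chr1:193301399-193301698, plus strand: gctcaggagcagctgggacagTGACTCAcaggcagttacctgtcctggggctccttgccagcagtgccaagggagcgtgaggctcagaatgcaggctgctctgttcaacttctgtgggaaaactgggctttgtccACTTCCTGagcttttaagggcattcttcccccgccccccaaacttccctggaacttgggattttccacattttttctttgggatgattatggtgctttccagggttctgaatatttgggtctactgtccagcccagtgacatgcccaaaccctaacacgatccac
Lamb3 at the start, 2209 and 6225, chr1:193302039-193302338, plus strand: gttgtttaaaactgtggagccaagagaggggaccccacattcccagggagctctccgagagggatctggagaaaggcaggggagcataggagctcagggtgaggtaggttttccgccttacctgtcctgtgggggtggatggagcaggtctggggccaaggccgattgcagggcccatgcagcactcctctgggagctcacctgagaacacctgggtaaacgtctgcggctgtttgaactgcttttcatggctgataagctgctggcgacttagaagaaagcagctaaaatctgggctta
Lamb1 intron 4, 398 and 880, chr12:31271422-31271721, plus strand: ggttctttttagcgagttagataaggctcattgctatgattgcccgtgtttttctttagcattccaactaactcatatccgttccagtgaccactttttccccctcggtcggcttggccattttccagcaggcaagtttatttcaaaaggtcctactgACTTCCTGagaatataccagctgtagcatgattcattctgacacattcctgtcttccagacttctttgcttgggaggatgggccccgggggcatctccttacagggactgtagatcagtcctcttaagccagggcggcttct
Lamc1 intron 1, 392 and 560, chr1:153300434-153300733, plus strand: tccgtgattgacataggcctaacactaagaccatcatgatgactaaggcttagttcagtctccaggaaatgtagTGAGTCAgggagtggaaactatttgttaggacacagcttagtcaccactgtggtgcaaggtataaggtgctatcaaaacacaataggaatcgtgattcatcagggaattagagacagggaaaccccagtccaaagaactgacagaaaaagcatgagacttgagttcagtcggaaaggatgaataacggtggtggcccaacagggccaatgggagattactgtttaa
Lama5 intron 2, 4500 and 2408, chr2:180220249-180220548, plus strand: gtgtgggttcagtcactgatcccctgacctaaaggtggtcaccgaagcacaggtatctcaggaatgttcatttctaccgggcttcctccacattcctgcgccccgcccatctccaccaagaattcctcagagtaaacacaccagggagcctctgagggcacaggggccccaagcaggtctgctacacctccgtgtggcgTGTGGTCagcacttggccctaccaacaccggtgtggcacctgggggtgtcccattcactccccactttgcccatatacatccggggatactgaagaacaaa
Lama5 upstream of the start, 10222 and 7602, chr2:180227955-180228254, plus strand: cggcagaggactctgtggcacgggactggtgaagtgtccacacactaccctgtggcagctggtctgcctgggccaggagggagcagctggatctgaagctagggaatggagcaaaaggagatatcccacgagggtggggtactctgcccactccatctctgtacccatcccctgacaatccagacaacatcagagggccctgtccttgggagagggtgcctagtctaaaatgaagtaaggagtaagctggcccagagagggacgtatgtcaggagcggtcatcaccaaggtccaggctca
Lama4 intron 1, Etv5 region 6358, chr10:38979587-38979886, plus strand: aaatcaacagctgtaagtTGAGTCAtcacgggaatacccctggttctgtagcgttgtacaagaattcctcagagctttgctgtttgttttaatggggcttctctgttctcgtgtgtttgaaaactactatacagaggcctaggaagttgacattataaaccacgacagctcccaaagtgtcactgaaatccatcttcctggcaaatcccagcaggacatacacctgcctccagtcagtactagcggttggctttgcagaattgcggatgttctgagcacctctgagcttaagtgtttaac

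The Lamb3 stretch in intron 5 holds an AP-1 and a RUNX match, and the one upstream of the Lamb3-201 start holds an AP-1 and an ETS match. The centre of the common stretch that spans that start holds no match, and neither does the stretch upstream of Lama5. The Lamc1 intron holds 1 AP-1 match. The Lamb1 intron holds an ETS match at 31271580-31271587, on the minus strand, and the Lama5 intron holds a RUNX match. The Lama4 sequence, with its AP-1 match, comes from the Etv5 list alone. For comparison, the RefSeq promoters (GRCm38, 250 bases before to 50 after the start) of Lamb3 and Lamb1 are shown as well, since both were covered by regions and neither held a match to the 3 patterns.
Lamb3 promoter, chr1:193301744-193302043, plus strand: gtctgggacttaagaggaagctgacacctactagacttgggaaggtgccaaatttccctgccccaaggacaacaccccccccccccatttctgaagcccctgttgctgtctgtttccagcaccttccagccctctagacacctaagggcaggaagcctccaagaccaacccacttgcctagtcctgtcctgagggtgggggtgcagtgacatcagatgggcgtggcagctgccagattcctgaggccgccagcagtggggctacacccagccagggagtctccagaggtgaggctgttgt
Lamb1 promoter, chr12:31265043-31265342, plus strand: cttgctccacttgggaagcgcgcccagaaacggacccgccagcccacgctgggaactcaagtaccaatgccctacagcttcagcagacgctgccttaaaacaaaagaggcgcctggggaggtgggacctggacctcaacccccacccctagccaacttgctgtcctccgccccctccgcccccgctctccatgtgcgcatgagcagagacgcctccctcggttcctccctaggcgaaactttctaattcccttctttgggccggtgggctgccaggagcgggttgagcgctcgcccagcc

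An Etv4 region lay inside or within 50 kb of 5 of the 8 laminin genes (62.5%, interval 24.5 to 91.5), against 53.4% of the 21938 protein-coding genes. An Etv5 region lay so at 6 of 8 (75.0%, interval 34.9 to 96.8), against 42.7% of protein-coding genes. The 5 genes with Etv4 regions were Lama3, Lama5, Lamb1, Lamb3 and Lamc1, and the Etv5 list added Lama4. Lama1 and Lamb2, 2 of the 8, had no region in either list, as was the case for 8864 of the 21938 protein-coding genes. A region lay inside the gene for the same 5 and 6 members, where 23.0% and 14.7% of protein-coding genes had a region inside in the Etv4 and Etv5 lists. Most laminin genes are long, and longer genes held regions more often. Among genes of under 50 kb, the class of Lama5 and Lamb2, 51.7% had an Etv4 and 40.9% an Etv5 region inside or within 50 kb. For genes of 50 to 150 kb, the class of Lama1, Lama4, Lamb1, Lamb3 and Lamc1, the shares were 58.4% and 46.6%. For genes over 150 kb, the class of Lama3, they were 60.8% and 53.7%. For a region inside or within 50 kb, both intervals hold the share of all protein-coding genes. For a region inside the gene, the same counts of 5 and 6 of 8 give the same intervals, which lie above the shares of all protein-coding genes. By length class, the shares of genes with an Etv4 and an Etv5 region inside were 19.0% and 10.4% under 50 kb, 32.1% and 24.0% at 50 to 150 kb, and 47.7% and 41.6% over 150 kb. The Etv4 interval holds the shares of the 2 longer classes, and the Etv5 interval holds that of the longest class only. The set mixes the classes, and these shares are a description.

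**Figure D1:**
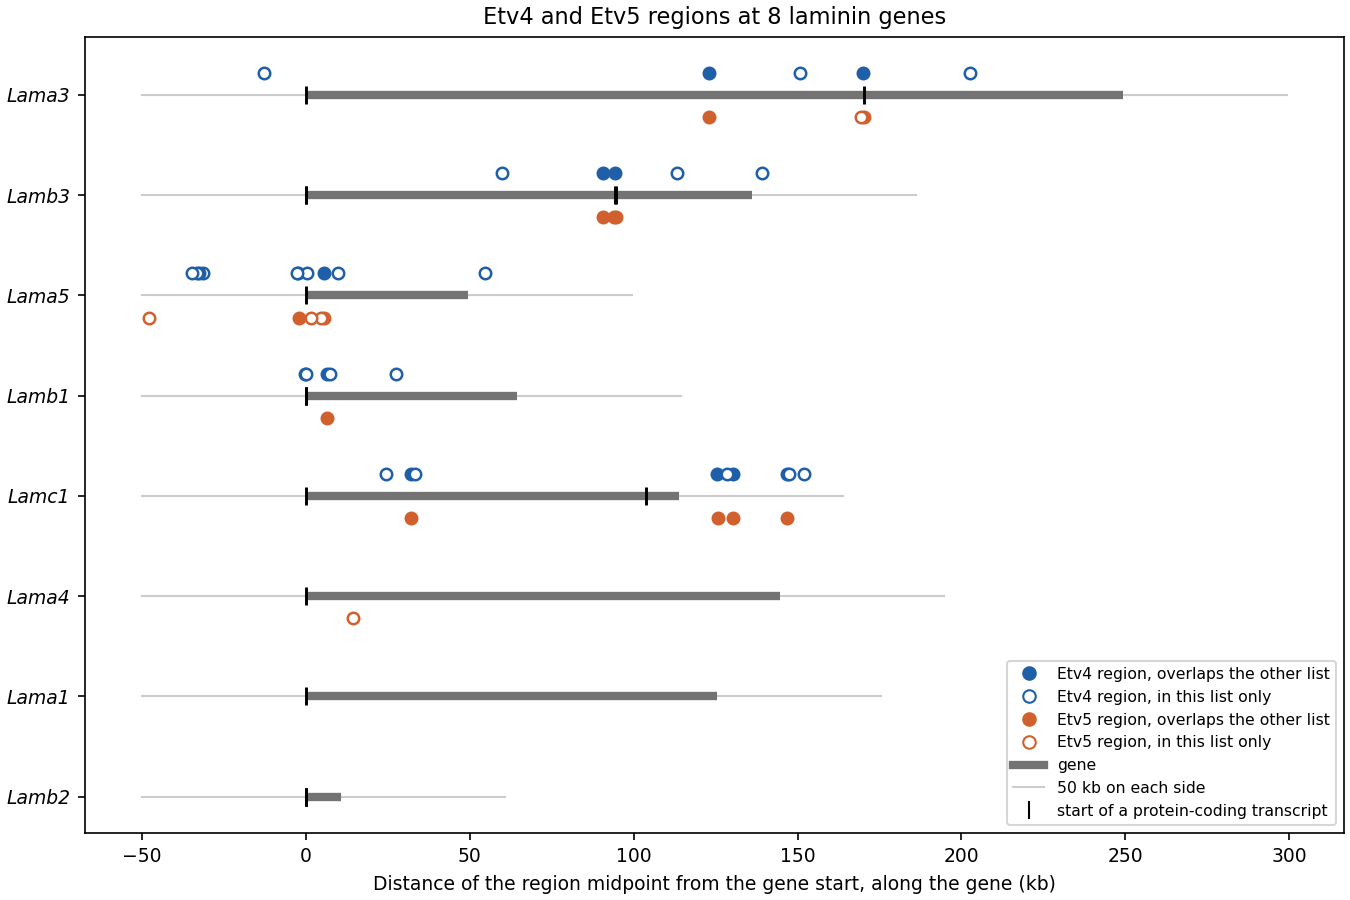
Each row is a laminin gene drawn from its start (0 kb) along its direction of transcription, with distance in kb on the x axis, the gene as a thick bar and 50 kb on each side as a thin line. Circles are region midpoints, Etv4 above and Etv5 below the gene, filled where the region overlaps the other list, and black ticks are starts of protein-coding transcripts. Regions of both lists lie at starts inside Lama3 and Lamb3, 170 and 94.3 kb from the gene start, others lie elsewhere in or near these genes, and Lama1 and Lamb2 are empty.

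The number of regions differed among the members. Lama5 had 10 Etv4 and 5 Etv5 regions, and 1.22% and 2.32% of protein-coding genes of its length class had as many or more. Lamc1 had 9 and 4 (1.39% and 4.99% of its class), but a Lamc1 start was the nearest start for 0 of these regions in either list, and 6 and 3 of them lay downstream of the gene. Lama3, Lamb1 and Lamb3 had 5 Etv4 regions each, and 3, 1 and 3 Etv5 regions. In their length classes 12.3%, 7.71% and 7.71% of genes had as many or more Etv4 regions, and 14.2%, 46.6% and 10.3% as many or more Etv5 regions. Lama4 had 0 and 1.

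**Figure D2:**
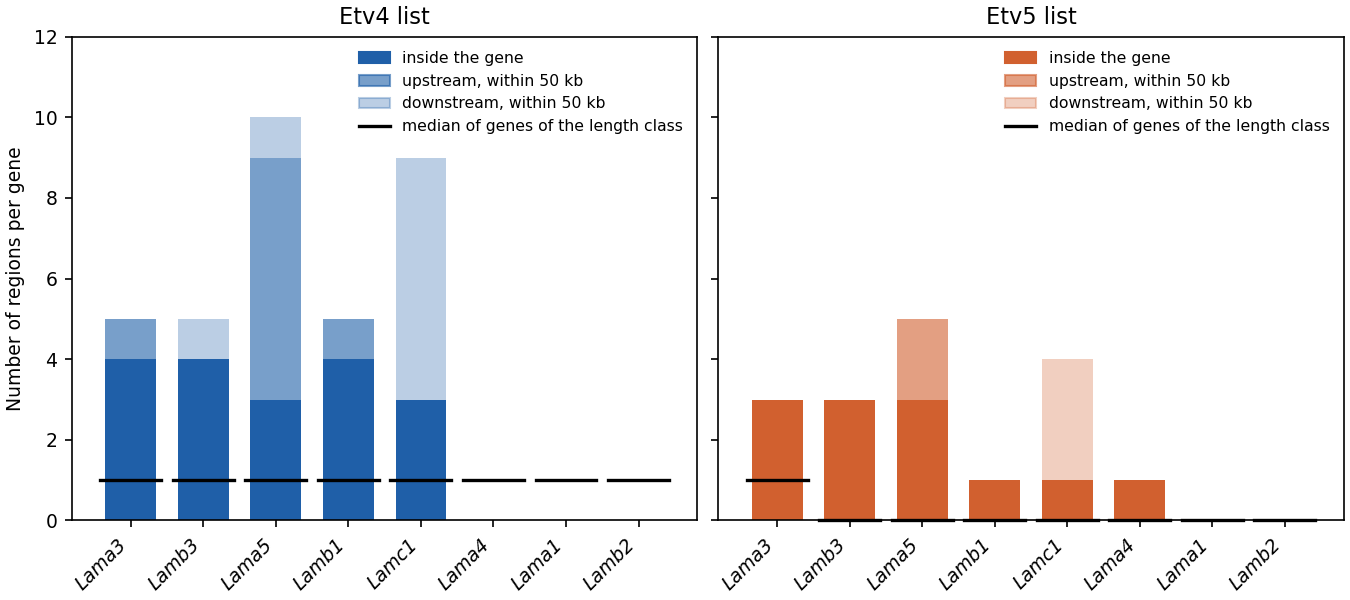
Bars give the number of regions (y axis) at each laminin gene (x axis) in the Etv4 list (left) and the Etv5 list (right), split by shade into inside, upstream and downstream of the gene, and the black line is the median over protein-coding genes of the same length class. The Etv4 counts of Lama5 and Lamc1 come largely from outside the genes, with 6 of 10 Etv4 regions of Lama5 upstream and 6 of 9 of Lamc1 downstream.

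Of the regions counted at the 8 genes, 18 Etv4 regions lay inside a member, 8 upstream and 8 downstream, and 12, 2 and 3 in the Etv5 list. The start nearest to the region belonged to the member itself for 15 of 34 Etv4 and 11 of 17 Etv5 regions. Of the neighbours whose starts were nearest, not all of which are listed, Gm8818 had 3 Etv4 regions and 1 Etv5 region and Gm29199 had 2 and 1. Also among them were Gm29200, Adrm1, Rps21, Hsd11b1 and Camk1g with 1 Etv4 region each, Mir3091 with 2, and Cables2 with 1 Etv4 and 1 Etv5 region. Beyond 2 kb of any start, 13 of 34 Etv4 regions were intronic, 6 intergenic and 2 exonic, where 29.7%, 31.2% and 2.60% of the whole Etv4 list were. In the Etv5 list these were 6, 3 and 1 of 17, where 30.8%, 34.0% and 2.06% of the list were. Regions far from genes could not enter these counts, since members were chosen within 50 kb.

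Within 2 kb of a transcript start of any gene lay 13 Etv4 regions (38.2%, interval 22.2 to 56.4), beside 36.5% of the whole Etv4 list. In the Etv5 list 7 regions did so (41.2%, interval 18.4 to 67.1), beside 33.1% of the list. The start belonged to a laminin member for 6 Etv4 and 5 Etv5 regions. By gene, Lama3, Lama5, Lamb1 and Lamb3 had an Etv4 region within 2 kb of a start of their own (4 of 8, interval 15.7 to 84.3), and Lama3, Lama5 and Lamb3 an Etv5 region (3 of 8, interval 8.52 to 75.5). Over protein-coding genes these shares were 17.9% and 10.6%, within both intervals. An Etv4 and an Etv5 region that overlapped each other and lay within 2 kb of the same start occurred at 5.60% of protein-coding genes. Among the 8 laminin genes they occurred at Lama3 and Lamb3, both chains of laminin-332, a grouping made after the positions were known. No interval was taken for this count of 2 of 8, so a difference from the 5.60% cannot be read from it.

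Lama3, which encodes the alpha chain of laminin-332, spans 249 kb on chromosome 18 from 12333819 to 12583013 (plus strand). Its long transcript, Lama3-201, starts at 12333819, and the short transcript, Lama3-202, starts at 12504199, 170 kb into the gene. At the short start, Etv4 region 1833 (chr18:12503439-12504332) and Etv5 region 3028 (chr18:12503860-12504456) both span the start and have 473 bp in common. Their midpoints lay 314 and 41 bp upstream of it. A further Etv5 region, 4782, had its midpoint 1106 bp upstream of the start and no Etv4 partner. The long start had nothing near it in either list, the closest region being Etv4 region 6906 with its midpoint 12.9 kb upstream. The remaining Etv4 regions lay 123, 151 and 203 kb into the gene. The first of these, region 546, overlapped Etv5 region 1411 by 602 bp and had its midpoint in exon 20, whereas that of region 1411 lay in intron 20. Region 546 stood at 4.00% of the Etv4 list, counted from its first region, and the pair at the short start stood at 13.4% of the Etv4 and 36.5% of the Etv5 list.

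Lamb3, the beta chain of laminin-332, lies on chromosome 1 at 193207699-193343878 (plus strand). GENCODE gives it long transcripts from the 5′ end of the gene and another cluster of starts 94.3 kb into it, at 193301993 (Lamb3-201) and 193302243 (Lamb3-202). RefSeq gives 2 starts, at 193301994 and 193302243. All 3 Etv5 regions and 2 of the 5 Etv4 regions gathered there. Etv4 region 2209 (chr1:193301128-193302742) was the longest of the 34, at 1615 bp, and spanned the Lamb3-201 start from 865 bp upstream to 749 bp downstream. It covered 2 Etv5 regions completely, region 1433 from 733 to 156 bp upstream and region 6225 from 49 bp upstream to 440 bp downstream. The RefSeq promoter of the first start was covered by Etv4 over all 300 bases and by Etv5 over 194 bases, and that of the second start over 300 bases by each. The midpoints of Etv4 region 542 and Etv5 region 323 lay 3.69 and 3.70 kb upstream of Lamb3-201, in intron 5 of the long transcript. They had 956 bp in common, with midpoints 2 bp apart, and stood at 3.97% and 3.89% of their lists. The long start, 94.3 kb away, had no region within 50 kb upstream. Of the other Etv4 regions, 13535 lay in the first intron of the long transcript, nearest to Hsd11b1. Region 11971 lay 204 bp from the start of the noncoding transcript Lamb3-203, and 10941 in an exon of Camk1g, downstream of Lamb3. These last 3 stood at 99.3%, 87.8% and 80.2% of the Etv4 list.

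**Figure D3:**
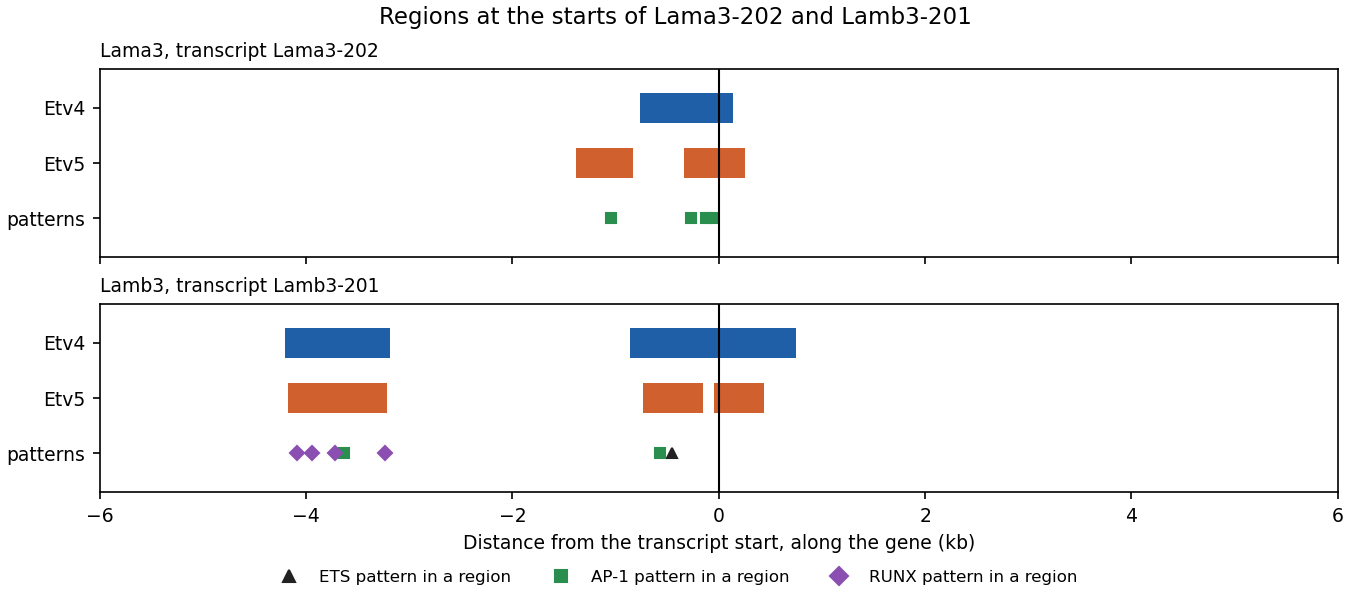
Bars are Etv4 (blue) and Etv5 (orange) regions around the starts of Lama3-202 and Lamb3-201, with distance from the start in kb on the x axis, and symbols are ETS, AP-1 and RUNX patterns inside the regions. Both lists have a region across or within 2 kb of each start, with AP-1 patterns upstream of both starts and an ETS pattern upstream of Lamb3-201.

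At the short Lama3 start, the common stretch of both regions held 3 AP-1 patterns, 276, 124 and 68 bp upstream of the start counted to their first base, and no ETS or RUNX pattern. Etv5 region 4782 held another, 1047 bp upstream. Of the Lamb3 patterns, an AP-1 pattern lay 573 bp and an ETS pattern 459 bp upstream of the Lamb3-201 start, both inside Etv4 region 2209 and Etv5 region 1433. Both patterns fell outside the 500 bp around the midpoint of the longer Etv4 region. They therefore count only for Etv5 in the shares of regions with a pattern. The upstream pair 542 and 323 held 1 AP-1 and 4 RUNX patterns over the whole Etv4 region, of which 1 AP-1 and 1 RUNX lay within the central 500 bp.

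Lamc1, the gamma chain of laminin-511 and laminin-111, lies on chromosome 1 at 153218922-153332786 on the minus strand, and had no region within 2 kb of a start of its own in either list. Inside the gene, all 3 Etv4 regions and the single Etv5 region were in the first intron. Etv4 region 392 and Etv5 region 560 had 965 bp in common, with midpoints 3 bp apart, 32.2 kb from the start, and stood at 2.87% and 6.75% of their lists. Region 392 was the first by number of all 34. Etv4 regions 9800 and 12173, 24.3 and 33.1 kb from the start, had no partner. More than 50% of the 36-base sequences of region 12173 (58.1%) occur elsewhere in the assembly, the only such region among the 34 and 17. The other 6 Etv4 and 3 Etv5 regions counted for Lamc1 lay downstream of it.

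Lama5, the alpha chain of laminin-511, lies on chromosome 2 at 180176373-180225859 (minus strand) among closely spaced genes. Its single coding start, at 180225859, lay outside all regions, and its RefSeq promoter was not covered by either list. Etv4 region 11036 had its midpoint 373 bp and Etv5 region 5901 1633 bp downstream of the start, both in the first intron, and they did not overlap. Further inside, Etv4 region 4500 and Etv5 region 2408 had 576 bp in common in intron 2, 5.53 and 5.44 kb from the start by midpoint. Etv5 region 2028, 4.50 kb from the start, and Etv4 region 6526, 9.70 kb from it, had no partner. Upstream, Etv4 region 10222 and Etv5 region 7602 had 83 bp in common, with midpoints 2.39 and 2.11 kb before the start. This pair stood late in the lists, at 75.0% and 91.6%. Etv4 region 10730, with its midpoint 2835 bp before the start, had no partner. The remaining regions were nearest to the starts of other genes. Etv4 regions lay 114 bp from a start of Adrm1, 75 bp from Rps21, 1065 and 1677 bp from Mir3091 and 1004 bp from Cables2. Etv5 region 1223, with an ETS pattern (CCGGAAGT), lay 331 bp from another Cables2 start. Adrm1 encodes a ubiquitin receptor of the proteasome and Rps21 a ribosomal protein. Of the 10 Etv4 regions of Lama5, 5 had a start of Lama5 as their nearest start, and 4 of the 5 Etv5 regions.

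Lamb1, the beta chain of laminin-511 and laminin-111, lies on chromosome 12 at 31265234-31329644 (plus strand). At its start the Etv4 list had 2 short regions and the Etv5 list none. Region 11294 (323 bp) had its midpoint 294 bp upstream of the Lamb1-205 start, and region 11624 (356 bp) spanned the cluster of starts. Together they covered 253 of the 300 bases of the RefSeq promoter. They stood at 82.8% and 85.2% of the Etv4 list, and region 11294 held an AP-1 pattern. In contrast, Etv4 region 398 and Etv5 region 880, 6.30 and 6.34 kb into the gene in intron 4, had 788 bp in common and stood at 2.92% and 10.6% of their lists. These 2 regions held the ETS pattern shown among the sequences. Etv4 regions 6447 and 4228, in introns 5 and 13, had no partner.

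Lama4, on chromosome 10 at 38965515-39110188 (plus strand), had a single region, Etv5 region 6358, 14.2 kb from the start in the first intron. It stood at 76.6% of the Etv5 list, held an AP-1 pattern and had no Etv4 partner. The nearest Etv4 region lay 226 kb from the gene. Lama1, on chromosome 17 at 67697259-67822647, had its nearest Etv4 region 71.9 kb and its nearest Etv5 region 167 kb from the gene. For Lamb2, on chromosome 9 at 108479736-108490530, these distances were 70.0 and 76.4 kb. The RefSeq promoter of Lamb2 was not covered. Absence from a list shows only that no region was called there in this library, since the depth is unknown.

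Regions that overlapped the other list numbered 11 of 34 for Etv4 (32.4%, interval 17.4 to 50.5), beside 37.8% of the whole Etv4 list. For Etv5 they numbered 12 of 17 (70.6%, interval 44.0 to 89.7), beside 63.2% of the list. The intervals hold the list values. The Etv4 list is the longer of the lists. With it shortened to the length of the Etv5 list, the shares were 47.6% of 21 Etv4 and 64.7% of 17 Etv5 regions. Whether list length accounts for the difference between these shares was not tested. The 12 pairs of regions lay at Lamc1 (4), Lamb3 (3), Lama3 (2), Lama5 (2) and Lamb1 (1). In 9 of the 12 pairs the Etv5 region lay wholly inside the Etv4 region. Between 83 and 991 bp were common to both regions of a pair, and their midpoints were 2 to 387 bp apart.

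Overlapping regions were also the early ones by region number. All 7 Etv4 regions in the first 10% of their list and all 3 such Etv5 regions overlapped the other list, where 77.7% and 97.5% of all regions in the first 10% of the lists did. In the second 50% of the lists, 1 of 17 Etv4 regions and 2 of 5 Etv5 regions did, where 20.8% and 46.2% of all such regions did. The median position of overlapping Etv4 regions was 8.02% of the list, and that of the other Etv4 regions was 61.5%. Over the whole Etv4 list the medians were 28.0% and 61.8%. For Etv5 they were 17.1% and 57.6% at the laminin genes, and 36.7% and 69.5% over the list. The overlapping Etv4 regions were longer as well, with a median of 963 bp (366 to 1615) against 480 bp (301 to 1376) for the others. Over the list these medians were 728 and 526 bp. The same split is thus present in the whole lists, and no test of a difference from them was made.

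**Figure D4:**
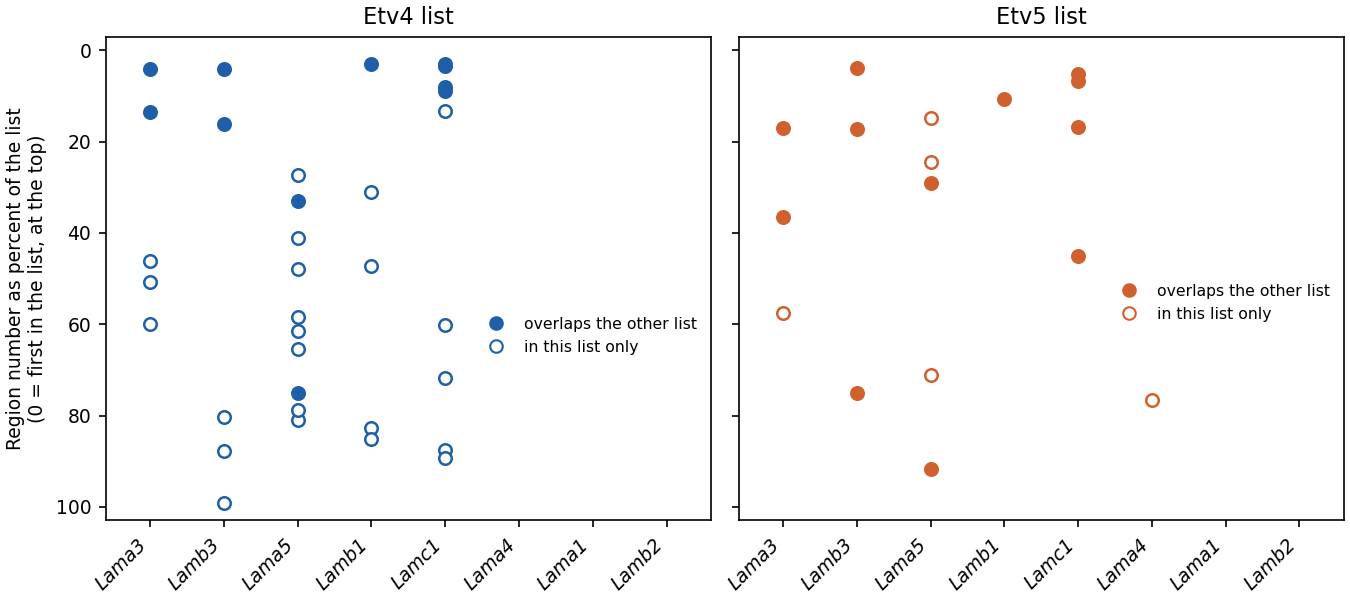
Each circle is a region at a laminin gene (x axis), placed by its region number as a percentage of its list (y axis, the first region at the top), with Etv4 at the left and Etv5 at the right. Filled circles overlap the other list, and in the Etv4 panel they lie above the open ones in Lama3, Lamb1, Lamb3 and Lamc1 but not in Lama5.

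Patterns were counted in 500 bp around each midpoint and on both strands. The AP-1 pattern (TGACTCA), bound by Fos and Jun dimers, occurred in 9 of 34 Etv4 regions (26.5%, interval 12.9 to 44.4) beside 37.4% of the list. It occurred in 7 of 17 Etv5 regions (41.2%, interval 18.4 to 67.1) beside 35.8% of the list. In 20000 random windows of the same length it occurred in 7.64%, and in 32817 RefSeq promoters of 300 bases in 5.20%. The ETS pattern (CAGGAAGT or CCGGAAGT) occurred in 1 Etv4 region (2.94%, interval 0.0744 to 15.3) and 3 Etv5 regions (17.6%, interval 3.80 to 43.4). The lists had it in 10.2% and 7.93%, random windows in 3.68% and promoters in 7.07%. The 3 Etv5 regions were at Lamb1, at the Lamb3 start and at Cables2 upstream of Lama5, and the Etv4 region was the partner at Lamb1. The same letters backwards, which are no ETS site, occurred in 1 region of each list, and in 3.27% of random windows. The RUNX pattern (TGTGGTT or TGTGGTC) occurred in 6 Etv4 (17.6%) and 4 Etv5 regions (23.5%), beside 24.7% and 23.9% of the lists, 16.5% of random windows and 9.26% of promoters. The TEAD pattern (GGAATG) occurred in 14 Etv4 and 7 Etv5 regions, 41.2% of each, beside 32.3% and 34.0% of the lists, 25.2% of random windows and 14.7% of promoters. ETS and TEAD matches can share bases. All 4 intervals of AP-1 and ETS at the laminin genes hold the share of the list. The Etv4 interval of ETS also holds the share of random windows, 3.68%. The Etv5 interval of ETS and both AP-1 intervals lie above the shares of random windows.

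Partners of the laminins were counted in lists of 33 other genes. A region inside or within 50 kb was present at 26 of them in the Etv4 list (78.8%, interval 61.1 to 91.0) and at 25 in the Etv5 list (75.8%, interval 57.7 to 88.9). These intervals lie above the background shares of 53.4% and 42.7%. However, the lists were chosen with earlier results of these data known, and no test was made. For protein-coding genes over 150 kb, the shares were 60.8% and 53.7%. The counts include regions nearest to the starts of neighbouring genes, and some listed genes share a locus, so they are not independent. A region within 2 kb of a start of the gene itself was present at 10 (30.3%, interval 15.6 to 48.7) and 6 (18.2%, interval 6.98 to 35.5). These intervals hold the background shares of 17.9% and 10.6%. Of 15 other basement membrane genes (nidogens, perlecan, agrin, collagens IV, XV and XVIII and others), 10 and 12 had a region. A region near a start was found for Col18a1 alone, in the Etv4 list, with midpoints 290 bp upstream and 83 bp downstream of starts of its transcripts. The intervals for such basement membrane genes, 0.169 to 31.9 (Etv4) and 0 to 21.8 (Etv5), hold the background shares. Of 8 laminin receptor genes, 7 had a region in each list. Itga3, the integrin α3 subunit that binds laminin-332 and laminin-511, had 3 overlapping pairs within 2 kb of its starts. Itgb1 (integrin β1) and Cd151 (a tetraspanin of laminin-binding integrins) had 1 pair each near a start. Itgb4 (integrin β4) had an Etv4 region 33 bp from a start and no Etv5 region within 2 kb. Itga7 had 5 Etv4 and 2 Etv5 regions, Itga6 1 in each list, and Dag1 and Bcam 1 in 1 list, none of them within 2 kb of a start of its own gene. The Dag1 region was 29 bp from a start of Rhoa and the Bcam region 276 bp from Tomm40. For Itga7, 3 Etv4 regions and 1 Etv5 region were within 2 kb of starts of Rdh5 or Bloc1s1.

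Among 4 hemidesmosome and anchoring genes, Plec (plectin) had 13 Etv4 and 7 Etv5 regions, with overlapping pairs near starts. Dst (BPAG1) had 14 and 5, and Col7a1 (the anchoring fibril collagen) 3 and 3. For these 2 genes the regions near starts did not overlap between the lists. Col17a1 had 2 Etv4 regions upstream, 822 and 240 bp from a start of Sfr1, and none near its own start. Among genes listed for laminin-332 processing, Mmp14 had Etv4 regions with midpoints 124 bp upstream of a start and 1611 bp downstream of another. Plau had one 63 bp downstream of a start. Neither had an Etv5 region within 2 kb. Bmp1 had 1 Etv4 region and Tll1 none. Of other laminin chains, Lama2 had 1 Etv4 and 2 Etv5 regions and Lamc3 1 of each, none within 2 kb of a start of its own gene. The Etv4 region of Lamc3 was 23 bp from a start of Nup214.

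**Figure D5:**
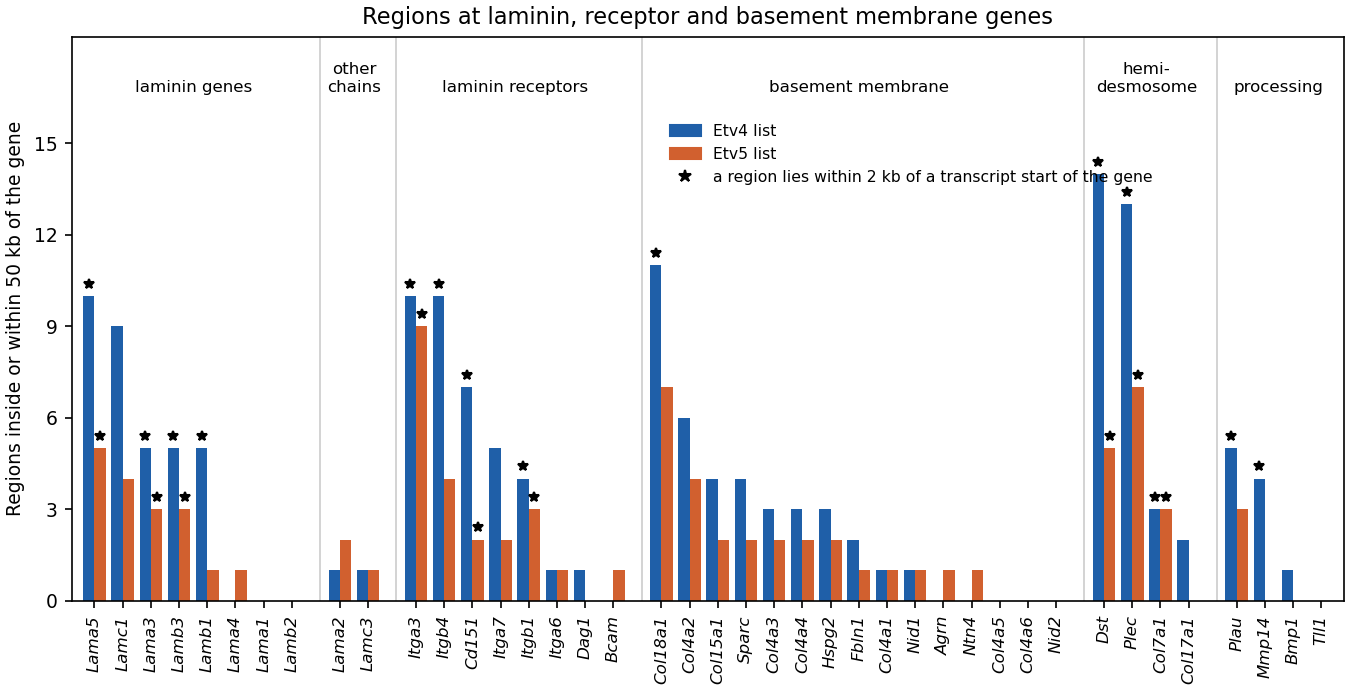
Bars give the number of Etv4 and Etv5 regions inside or within 50 kb (y axis) of each gene (x axis), grouped as laminin genes, other laminin chains, receptors, basement membrane, hemidesmosome and processing genes, and a star marks a region within 2 kb of a start of the gene. Starred bars are present among the receptor, hemidesmosome and processing genes. Among the 15 basement membrane genes only the Etv4 bar of Col18a1 has one, and no difference between groups was tested.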

How the data were processed

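The 2 libraries of EpRas cells, Etv4 and Etv5, were used, grouped by the antibody in the labels. The authors amplified libraries by 15 cycles of PCR, sequenced them on an Ion Proton and called regions per library with CisGenome in one-sample mode (window of 300 bp, p threshold of 0.1), without input DNA. Open chromatin, copy number and mappability are therefore not removed. Per the labels, mapping used Bowtie and mm10. The deposited BED score is 1000 throughout and was not used. The deposited lists give no counts, so depth and its precision are unknown.

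The members and gene lists were chosen with earlier results of these data known. Regions were assigned to GENCODE M21 genes on GRCm38 by overlap with the gene (inside) or its 50 kb flanks. Distances, features and closeness to starts were taken from region midpoints. Named are the 8 genes with their regions, the genes with the nearest starts, and genes of the other lists with a region within 2 kb of a start. Itga6, Itga7, Dag1, Bcam, Col17a1, Bmp1, Tll1, Lama2 and Lamc3, and neighbours of the listed genes, were named in addition, after their values were seen. Overlap needed 1 bp. Random windows numbered 20000. Sequences came from GRCm38 and RefSeq promoters, where Lama5, Lamb1, Lamb2 and Lamb3 matched among the genes searched. Results on 1 further gene are not reported here. No test was made. Functions were tested on simulated data, where 700 of 700 planted shared regions and 400 of 400 sites were found. Python 3.11.15, numpy 2.4.6, scipy 1.17.1, numba 0.67.0 and matplotlib 3.10.9 were used. Alternatives were distances of 10 and 100 kb or inside the gene, the first 50% by region number, lists without multicopy regions, merging, equal list lengths, other rules of overlap, start distance and pattern window.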

Additional observations from a re-analysis of the deposited data

How the results depend on the processing

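No paired analysis was possible because there was a single library for either antibody and no comparison was tested. Of the totals and shares, 73 of 80 values under the alternatives stayed within the range set by counting error or 1.5 times the main count. Inside the genes only, the Etv4 total was 18 in place of 34, and 14 of the 33 related genes had an Etv5 region in place of 25. In the first 50% by region number the Etv4 total was 17 and 58.8% of these overlapped the other list, in place of 32.4%. With the Etv4 list shortened to the length of the Etv5 list, the Etv4 total was 21. Within 5 kb in place of 2 kb, 58.8% of Etv4 regions lay near a start. In 200 bp in place of 500 bp, the RUNX pattern occurred in 5.88% of Etv4 regions. Counts of single genes moved in 24 of 104 cases. Lama5 had 3 and Lamc1 3 Etv4 regions inside the gene. Within 100 kb, Lamb2 had 5 Etv4 and 1 Etv5 regions and Lama1 had 1 Etv4 region. The single Lama4 region was absent from the first 50% of the Etv5 list. Without replicates and with unknown depth, missing regions could not be told apart from regions under the calling limit.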
